A study of Caenorhabditis elegans with 83 samples.

Results

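The spe genes of Caenorhabditis elegans, named for the spermatogenesis-defective mutants in which they were found, were taken as all genes whose name in the WBcel235 annotation begins with spe-. The Ensembl annotation names 29 such genes, and each had a row in both sets of count files, which held 20449 gene rows for SX1263 animals and 20390 for EG6089 animals. What was measured was small RNA and not messenger RNA: the value of a gene is the number of small RNA reads that the authors assigned to it. All 29 are protein-coding genes. Chromosome I holds 12 of them, chromosome IV 9, chromosome V 5, chromosome III 2 and chromosome II 1. The X chromosome holds 0 of the 29, while it holds 13.6% of the protein-coding gene rows. The exons of a spe gene cover 343 to 3889 bases, with a median of 1267.

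A C. elegans hermaphrodite makes sperm late in larval life, then switches its germline to oocytes and fertilises them with the stored sperm. The spe genes act along that path: some build the sperm and its membranous organelles, some activate the round spermatid into a crawling spermatozoon, some are needed on the sperm surface to enter the oocyte, and spe-11 acts in the egg after entry. Germline transcripts of the worm are templates for small RNAs made by RNA-dependent RNA polymerases and bound by Argonaute proteins, and the Argonautes ALG-3 and ALG-4 carry primary small RNAs against genes expressed in sperm formation. MET-2 and SET-25 are methyltransferases of histone H3 lysine 9, MET-2 for the lower and SET-25 for the highest methylation state, and the series title asks what this mark does in the inheritance of small RNAs.

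Small RNA was sequenced from whole day 1 adults grown at 20 degrees, in 83 libraries that form 28 groups. Each group had 3 libraries, except wild type SX1263 of P0 fed anti-GFP bacteria, which had 2. In SX1263 the groups were met-2(n4256);set-25(n5021), met-2(n4256), set-25(n5021) and wild type at P0 and F3, with met-2 and wild type also at F15. In EG6089 they were met-2(n4256);set-25(n5021) and wild type at P0 and F3. Every combination was sampled in a line fed bacteria that make dsRNA against GFP at P0, called an anti-GFP line, and in a line fed bacteria with an empty vector at P0, called a control line. Later generations were grown on OP-50, so that P0 differed from F3 and F15 in food as well as in generation. The labels do not say that libraries of a group came from separate cultures, so p-values measure the spread between these libraries only.

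Gene counts per library were 3583283 to 18225929 in SX1263 and 2134929 to 6102965 in EG6089. Levels below are counts per 1000000 gene counts after scaling, written CPM. The limit that a count of 0 allows, 3 counts, lay between 0.165 and 0.837 CPM for SX1263 libraries and between 0.492 and 1.41 CPM for EG6089 libraries. The met-2 gene itself had 83.3 to 112.1 CPM over the 18 met-2 libraries of SX1263 and 72.3 to 128.2 CPM over the 12 met-2;set-25 libraries, against 296 to 446 CPM over the 17 wild-type libraries. The set-25 gene had 99.3 to 196 CPM in met-2;set-25 and 153 to 202 CPM in set-25, against 230.4 to 324 CPM in wild type, with 163.5 to 223 CPM in met-2, below all wild-type libraries too. In EG6089 met-2;set-25 both genes were below all 12 wild-type libraries. Animals were sampled whole, so that fewer germ cells and less small RNA per germ cell cannot be told apart. The sources used here do not give the strand used in counting, so a value may hold sense or antisense reads. Exons of spe-29, spe-47, spe-5, spe-36 and spe-49 overlap a gene on the other strand by 117, 103, 68, 62 and 63 bases, and those of spe-36, spe-27 and spe-38 overlap one on the same strand by 68, 61 and 58 bases, which leaves these genes uncertain to that extent. Whole piRNA genes of 21 bases lie in exons of spe-26, on the other strand, and of spe-27, on the same strand. Smaller overlaps on the other strand are 8 bases in spe-9 and 6 in spe-12.

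In wild type the spe genes fell into a small set with many small RNAs and a large set with few. Per kilobase of exon, the highest in SX1263 wild-type controls of F3 was spe-47, at 86.4 ± 10.96 CPM per kilobase (SD, n = 3). It was followed by spe-39 at 37.1 ± 1.35, spe-41 at 26.8 ± 3.30, spe-44 at 17.3 ± 1.62, spe-48 at 16.2 ± 1.51, spe-15 at 13.1 ± 0.50, spe-6 at 6.95 ± 0.767 and spe-5 at 6.67 ± 0.291 CPM per kilobase. Within that order spe-44 and spe-48, and spe-6 and spe-5, lay within each other's SD. The other 21 genes had at most 1.11 CPM per kilobase, and most of them lay below the median of 0.729 over all genes. The same 8 genes held the 8 highest ranks in wild-type controls of P0, F15 and both EG6089 generations, with spe-47 always at the top, at 122.2 ± 8.77 CPM per kilobase in SX1263 at P0 and 73.8 ± 4.49 in EG6089 at F3. In the EG6089 wild-type controls of F3, spe-8, spe-27 and spe-49 had no count.

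The low levels set which members could be tested. The low-count filter kept 27 spe genes at P0, 22 at F3 and 23 at F15 in SX1263, and 9 in each EG6089 generation. Only 10, 10 and 8 members reached the filter's level in every wild-type control library of SX1263 at P0, F3 and F15. The other 17, 12 and 15 tested members did not, and some of them, such as spe-49, passed through libraries of other groups. In EG6089, 8 of the 9 reached it in every wild-type control library at P0 and at F3. The other 1, spe-36, passed only through met-2;set-25 libraries. A member that passes through the group in which it is high is more likely to be called. The counts below therefore describe the tested members and support nothing about the family. One of those never tested was spe-29, whose product is a small membrane protein of the spe-8 activation pathway and which reached at most 0.802 CPM in SX1263 libraries.

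In control lines 6, 10 and 16 of the tested spe genes were called in met-2 at P0, F3 and F15, most of them low-level genes that were higher, and 0 were called in set-25 at P0 and F3. A gene was called at an adjusted p under 0.05 in edgeR's quasi-likelihood test with Benjamini-Hochberg adjustment over all genes tested. Against wild type, met-2 had 5 spe genes higher and 1 lower of 27 tested at P0, where 13.5% of all genes tested were called higher and 9.93% lower. It had 9 higher and 1 lower of 22 at F3, where 17.9% of all genes were higher and 10.3% lower. It had 15 higher and 1 lower of 23 at F15, where 19.1% were higher and 17.4% lower. The median log2 change of the tested spe genes was 1.01, 1.68 and 2.37 at P0, F3 and F15, and that of all tested genes was -0.02, 0.03 and -0.01. The 8 genes with high levels in wild type had median log2 changes of -0.02, 0.05 and 0.05, and the other tested members had 1.07, 2.46 and 2.46. The 8 were chosen by their level in wild-type controls of F3, which are also the reference at F3. Most of the other tested members did not reach the filter in every wild-type control library. Both choices favour higher changes in the others, and the filter also acts on the medians over all tested spe genes. These medians therefore describe the tested members only. Of the 10, 10 and 8 members that reached the filter in every wild-type control library, 2 were higher at P0 (spe-18 and spe-47), 1 at F3 (spe-47) and 1 at F15 (spe-6), and 1, spe-41, was lower at each. Among those members calls went both ways, and counts this small cannot be set apart from the shares over all genes given above.

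**Figure D1:**
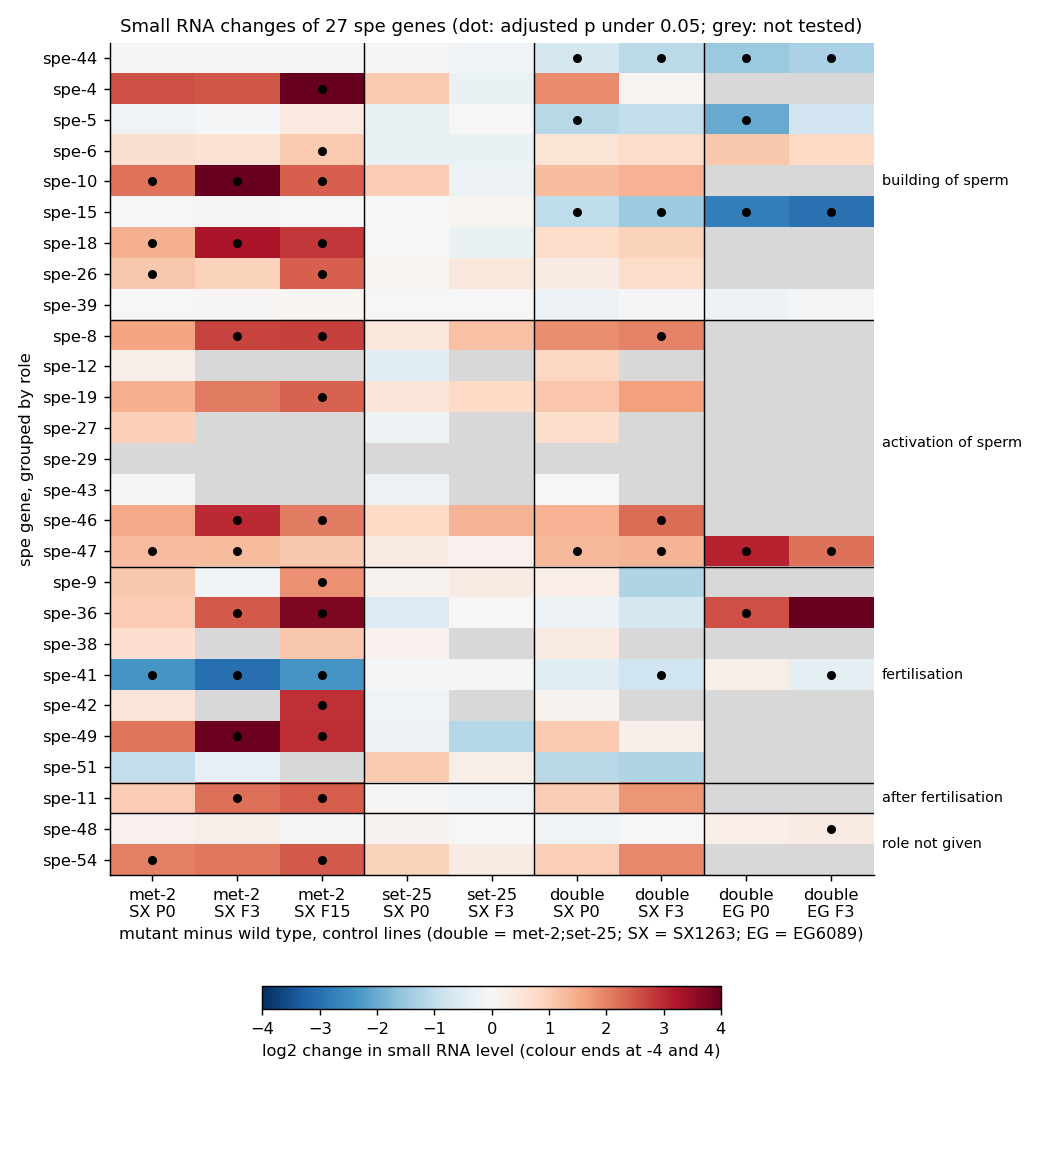
Log2 change in small RNA level of 27 of the 29 spe genes (down the page, grouped by role) in each mutant against wild type in control lines (across), as colour, with dots for an adjusted p under 0.05 and grey for genes not tested. The met-2 columns hold 6, 9 and 15 dots at P0, F3 and F15, the set-25 columns hold 0, and spe-15 and spe-44 are blue with dots in all 4 met-2;set-25 columns.

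In set-25 control lines neither edgeR nor DESeq2 called a spe gene. With edgeR, 0 of 27 tested members passed at P0, where 0.956% of all genes did, and 0 of 22 at F3, where 1.11% did. DESeq2 also called 0 at both. At an unadjusted p under 0.05 there was 1 member at P0, spe-47, where 6.21% of all genes passed. It had 203, 172 and 204 CPM in set-25 and 166, 146 and 148 CPM in wild type, a log2 change of 0.33 ± 0.12 (SE) with an adjusted p of 0.46. At F3 there was 0 at that unadjusted threshold, where 8.89% of all genes passed, and the lowest adjusted p was 0.723.

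In met-2;set-25 the calls went both ways. In SX1263 control lines, 1 spe gene was higher and 3 were lower of 27 at P0, where 11.2% of all genes were higher and 14.1% lower, and 3 were higher and 3 lower of 22 at F3, where 18.6% were higher and 19.7% lower. In EG6089, 2 were higher and 3 lower of 9 at P0, where 18.5% of all genes were higher and 27.4% lower, and 2 were higher and 3 lower of 9 at F3, where 23.7% were higher and 27.1% lower. One of those higher at P0 was spe-36, which passed the filter only through met-2;set-25 libraries. The median log2 change of the tested members was 0.54 and 0.46 in SX1263 at P0 and F3, with 0.01 and 0.04 over all genes, and 0.24 and -0.05 in EG6089, with -0.11 and -0.01 over all genes. Replicate numbers paired the SX1263 P0 libraries, and with the replicate number as a block the P0 count was 8 and not 4. The further calls were spe-8, higher with a log2 change of 1.55 (adjusted p = 0.0398), and spe-39, spe-41 and spe-51, lower with -0.23 (adjusted p = 0.0185), -0.45 (adjusted p = 0.0319) and -1.20 (adjusted p = 0.0429).

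Among the genes that build sperm, spe-15 had fewer small RNAs in met-2;set-25 in both backgrounds and close to wild-type levels in met-2. It encodes myosin VI, a motor that sorts cell contents as spermatids bud, and lies on chromosome I at 1446497 to 1465358 (WBcel235). At P0 in SX1263 the controls had 25.3, 23.2 and 16.6 CPM in met-2;set-25 and 39.4, 43.6 and 45.5 CPM in met-2, against 47.5, 45.6 and 37.8 CPM in wild type. At F3 they had 17.8, 14.6 and 22.4 CPM in met-2;set-25 and 48.6, 47.7 and 60.1 CPM in met-2, against 48.6, 51.6 and 52.2 CPM in wild type. In EG6089 the controls had 3.16, 8.98 and 2.97 CPM in met-2;set-25 at P0, against 30.4, 37.2 and 33.4 CPM in wild type. All met-2;set-25 libraries of each set lay below all wild-type ones, and the SX1263 ones also below all met-2 ones. At F3 the EG6089 controls had 11.7, 3.14 and 3.64 CPM in met-2;set-25, against 50.02, 40.3 and 45.2 CPM in wild type, again with no overlap. The log2 changes against wild type were -1.01 ± 0.15 (SE, adjusted p = 9.3e-05) and -1.46 ± 0.28 (adjusted p = 0.0005) in SX1263 at P0 and F3, and -2.74 ± 0.33 (adjusted p = 7.8e-06) and -2.99 ± 0.34 (adjusted p = 8.7e-06) in EG6089. Against met-2 they were -0.98 (adjusted p = 0.00017) at P0 and -1.49 (adjusted p = 0.00075) at F3. The introns of spe-15 hold other genes, gst-25 among them, but no other annotated gene shares exonic bases with it.

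The gene spe-44, which encodes a transcription factor that turns on sperm genes, went the same way. It lies on chromosome IV at 12452063 to 12454215. In SX1263 controls of F3 it had 12.1, 12.1 and 15.2 CPM in met-2;set-25 and 27.5, 26.5 and 32.6 CPM in met-2, against 26.5, 31.2 and 26.7 CPM in wild type. In EG6089 controls of F3 it had 10.9, 9.43 and 8.37 CPM in met-2;set-25, against 26.6, 19.4 and 23.6 CPM in wild type, and at P0 it had 8.81, 11.6 and 7.31 CPM against 25.2, 25.9 and 26.96 CPM. No met-2;set-25 library of these sets reached a wild-type one. The log2 changes against wild type were -1.09 ± 0.22 (adjusted p = 0.00081) in SX1263 at F3, and -1.49 (adjusted p = 1.9e-05) and -1.31 (adjusted p = 0.00022) in EG6089 at P0 and F3. At P0 in SX1263 the levels were 23.1, 14.8 and 13.3 CPM in met-2;set-25, against 29.4, 29.1 and 25.3 CPM in wild type. That change of -0.71 ± 0.20 (adjusted p = 0.014) did not survive the removal of met-2;set-25 replicate 2 or 3 or of wild-type replicate 2 (adjusted p = 0.08, 0.097 and 0.057).

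The gene spe-5, which encodes a subunit of the vacuolar proton pump and lies on chromosome I at 5101665 to 5103476, was lower in met-2;set-25 at P0. In SX1263 it had 7.05, 6.87 and 7.15 CPM in met-2;set-25 and 14.2, 14.9 and 11.8 CPM in met-2, against 10.8, 18.04 and 16.4 CPM in wild type. In EG6089 it had 2.83, 2.86 and 1.37 CPM in met-2;set-25, against 9.58, 10.8 and 9.06 CPM in wild type. The groups did not overlap, and the log2 changes against wild type were -1.1 ± 0.31 (adjusted p = 0.013) and -2.02 ± 0.31 (adjusted p = 8.2e-05), the SX1263 one lost without wild-type replicate 2 (adjusted p = 0.067). At F3 spe-5 was not called in either background. In SX1263 it had 4.92, 6.24 and 5.85 CPM in met-2;set-25, against 10.6, 11.4 and 11.5 CPM in wild type. These did not overlap, and the log2 change of -0.98 was near that of P0 but had an SE of 0.84 (adjusted p = 0.38). In EG6089 it had 4.03, 4.32 and 4.37 CPM in met-2;set-25, against 10.1, 7.56 and 3.56 CPM in wild type, which overlapped (log2 change -0.75 ± 0.32, adjusted p = 0.067).

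**Figure D2:**
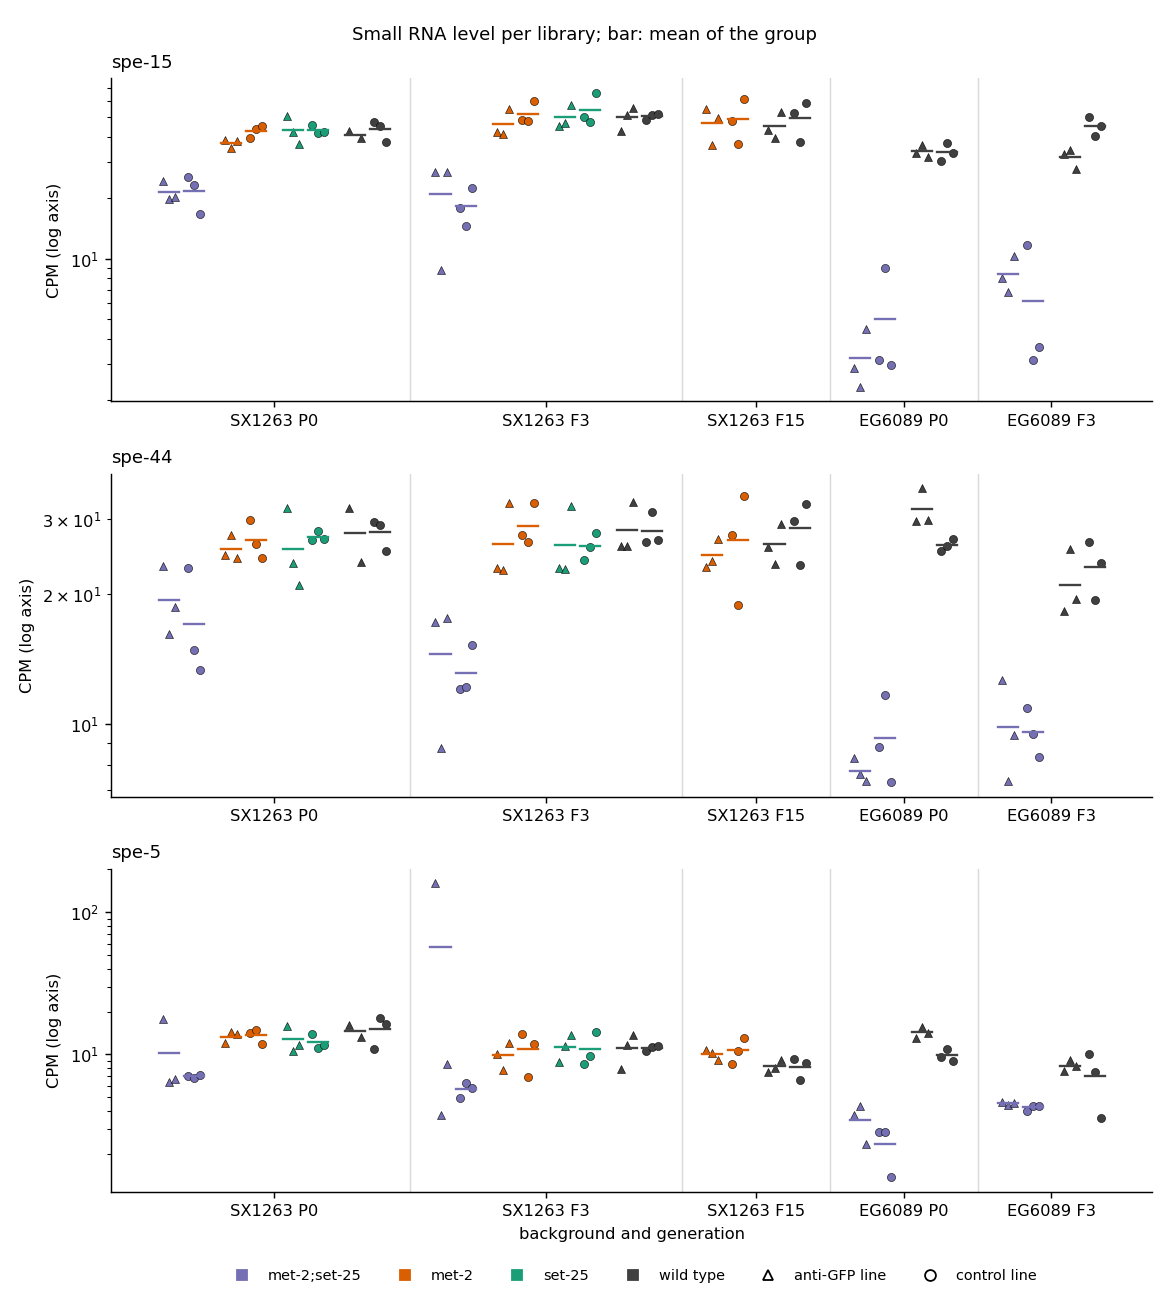
Small RNA level (CPM, log axis) of spe-15, spe-44 and spe-5 in each of the 83 libraries, by background and generation, with colours for genotype, circles for control lines, triangles for anti-GFP lines and bars for group means. The met-2;set-25 libraries of spe-15 and spe-44 lie below the wild-type ones in EG6089, and 1 met-2;set-25 anti-GFP library of F3 stands at 159 CPM for spe-5.

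Other genes that build sperm had few small RNAs in wild type and more in met-2. The product of spe-10 is a palmitoyltransferase of the membranous organelles (chromosome V, 10384250 to 10385740). The F3 levels were 18.3, 10.6 and 2.74 CPM in met-2 controls, against 0.373, 1.06 and 0 CPM in wild type, and at P0 it had 3.84, 8.45 and 5.10 CPM, against 1.46, 0.917 and 1.43 CPM. Every met-2 library was above every wild-type one, though the met-2 libraries of F3 spread widely. The log2 changes were 4.39 ± 1.04 (adjusted p = 0.0038) at F3 and 2.17 ± 0.62 (adjusted p = 0.015) at P0, the P0 call lost without replicate 2 of met-2 or of wild type (adjusted p = 0.066 and 0.064).

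The gene spe-18 encodes a protein of the fibrous bodies, the stores of major sperm protein in developing sperm, and lies on chromosome II at 13151459 to 13153399. Levels at F3 were 8.40, 4.05 and 10.4 CPM in met-2, against 0.746, 1.06 and 0.521 CPM in wild type. At P0 it had 3.32, 7.07 and 6.85 CPM in met-2, against 2.91, 1.73 and 1.65 CPM, and at F15 it had 8.70, 15.8 and 21.2 CPM, against 0.969, 2.03 and 3.14 CPM. The groups stood apart at all 3 generations, most narrowly at P0. The log2 changes were 1.43 ± 0.43 (adjusted p = 0.022), 3.26 ± 0.59 (adjusted p = 0.00042) and 2.84 ± 0.50 (adjusted p = 0.0016) at P0, F3 and F15. The P0 call was lost without 4 of the 6 libraries, met-2 replicates 2 and 3 and wild-type replicates 2 and 3 (adjusted p = 0.079, 0.07, 0.086 and 0.091).

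Further genes of this role higher in met-2 at F15 included spe-26, spe-6 and spe-4. The kelch-repeat gene spe-26 had 3.07, 4.92 and 8.45 CPM in met-2 at F15, against 0.388, 0.868 and 1.68 CPM in wild type (log2 change 2.38, adjusted p = 0.005). At P0 the spe-26 groups overlapped and the call, a log2 change of 1.08 (adjusted p = 0.037), was lost without 4 of the 6 libraries, met-2 and wild-type replicates 2 and 3 (adjusted p = 0.11, 0.14, 0.12 and 0.12). The casein kinase 1 family gene spe-6 had 20.6, 18.9 and 25.5 CPM in met-2 at F15, against 11.6, 8.82 and 10.99 CPM in wild type, which differed by 1.05 on the log2 scale (adjusted p = 0.016). Leaving out met-2 replicate 3 or wild-type replicate 2 ended that call (adjusted p = 0.056 and 0.063).

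The presenilin gene spe-4, which acts in the membranous organelles (chromosome I, 7454660 to 7456953), rose in met-2 at F15 with 1 library far above the rest. It had 43.2, 8.66 and 10.2 CPM in met-2, against 0.388, 1.74 and 1.01 CPM in wild type, a log2 change of 4.24 ± 1.11 (adjusted p = 0.014). Without the highest library the change was 3.11 (adjusted p = 0.0421), and the call was lost without wild-type replicate 1 (adjusted p = 0.055) or replicate 3 (adjusted p = 0.0549). At F3 it had 2.29, 4.60 and 2.46 CPM in met-2, against 0.373, 0.454 and 0.868 CPM in wild type, where it was not called. Another gene of this role, spe-39, encodes a vesicle trafficking protein with roles in many cell types and varied little: 59.0 to 84.8 CPM over the 18 met-2 libraries, 50.2 to 73.8 CPM over the 12 met-2;set-25 ones and 61.2 to 77.6 CPM over the 12 set-25 ones, against 63.5 to 86.6 CPM over the 17 wild-type ones.

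Among the activation genes, spe-47 was higher in both met-2 mutants and in both backgrounds. Its product carries a major sperm protein domain and was found as a suppressor of spe-27, a gene of the spe-8 pathway that receives the activation signal in hermaphrodites. It lies on chromosome I at 2617529 to 2620430. At P0 in SX1263 controls it had 385, 356 and 382 CPM in met-2;set-25 and 363, 398 and 327 CPM in met-2, against 166, 146 and 148 CPM in wild type. At F3 it had 219.5, 343 and 273 CPM in met-2;set-25 and 216, 279 and 292 CPM in met-2, against 102, 124 and 98.6 CPM in wild type. All libraries of both mutants were above all wild-type ones. In EG6089 it had 378, 565 and 491 CPM in met-2;set-25 at P0, against 53.9, 71.4 and 43.5 CPM in wild type, and 474, 405 and 395 CPM at F3, against 93.4, 97.9 and 86.7 CPM. The log2 changes in met-2;set-25 were 1.29 (adjusted p = 7.2e-07) and 1.36 (adjusted p = 0.0002) in SX1263 at P0 and F3, and 3.09 ± 0.25 (adjusted p = 1.3e-07) and 2.20 ± 0.10 (adjusted p = 5.3e-10) in EG6089. The difference between the backgrounds was not tested. In met-2 the log2 changes were 1.24 ± 0.12 (adjusted p = 7.4e-07) at P0 and 1.27 ± 0.23 (adjusted p = 0.00043) at F3. At F15 spe-47 had 215, 228 and 435 CPM in met-2, against 154, 61.8 and 202 CPM in wild type. All met-2 libraries were above all wild-type ones, but both groups spread widely and the change of 1.07 ± 0.44 was not called by edgeR (adjusted p = 0.086), though DESeq2 called it (1.11, adjusted p = 0.0336). Replicate numbers paired the F15 libraries, and with the block the change was 1.14 (adjusted p = 0.0137).

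Of the other activation genes, spe-8 encodes a non-receptor tyrosine kinase and names the pathway (chromosome I, 118093 to 120901). Its F3 controls had 3.06, 3.07 and 1.78 CPM in met-2 and 2.38, 1.39 and 0.975 CPM in met-2;set-25, against 0.622, 0.151 and 0.347 CPM in wild type. At F15 it had 9.21, 11.4 and 13.5 CPM in met-2, against 1.16, 1.59 and 2.24 CPM in wild type. Neither mutant overlapped wild type at these generations. The log2 changes in met-2 were 2.71 ± 0.70 (adjusted p = 0.0068) at F3 and 2.72 ± 0.29 (adjusted p = 7.6e-05) at F15. At F3 the met-2;set-25 change of 1.99 ± 0.75 (adjusted p = 0.042) was lost without 4 of the 6 libraries, met-2;set-25 replicates 1 and 2 and wild-type replicates 2 and 3 (adjusted p = 0.2, 0.057, 0.15 and 0.1). At P0 in SX1263, replicate 1 of spe-8 was low in every genotype and line, at no more than 0.558 CPM, while replicates 2 and 3 had 1.53 to 12.1 CPM. Replicate 1 was also the lowest of every group for spe-11, at 0.313 to 1.49 CPM, against 1.43 to 5.96 CPM in replicates 2 and 3. This was not so for every member, and its cause was not tested. In EG6089 at P0 no library exceeded 0.442 CPM.

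The gene spe-46, another suppressor of spe-27 (chromosome I, 9056293 to 9057824), had 1.22, 2.79 and 2.05 CPM in met-2 and 1.91, 0.694 and 0.853 CPM in met-2;set-25 at F3, against 0.497, 0.151 and 0 CPM in wild type. Both mutants lay above wild type. The log2 change was 3.0 ± 0.69 (adjusted p = 0.0028) in met-2 and 2.24 ± 0.74 (adjusted p = 0.022) in met-2;set-25. Of these, the met-2;set-25 call was lost without replicate 1 of met-2;set-25 or replicates 2 or 3 of wild type (adjusted p = 0.14, 0.079 and 0.08). At F15 spe-46 and spe-19, a membrane protein gene of the spe-8 pathway, were higher in met-2 with log2 changes of 2.06 (adjusted p = 0.0057) and 2.37 (adjusted p = 0.0078). In the fits within a generation, the remaining pathway genes spe-12, spe-27 and spe-43 were tested at P0 only and not called. Over all SX1263 libraries they reached at most 2.65, 2.52 and 3.05 CPM.

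Among the genes of fertilisation, spe-41 was lower in met-2 at all 3 generations, and no other spe gene was called lower there. It encodes a calcium channel of the TRPC family that moves to the sperm surface on activation, and lies on chromosome III at 3439011 to 3444210. In SX1263 controls of P0 it had 71.9, 71.8 and 84.0 CPM in met-2;set-25, 21.2, 23.8 and 17.3 CPM in met-2 and 132, 87.1 and 81.7 CPM in set-25, against 130.5, 101 and 85.7 CPM in wild type. At F3 it had 30, 39.5 and 57.0 CPM in met-2;set-25, 9.78, 9.63 and 7.66 CPM in met-2 and 66.5, 73.9 and 68.5 CPM in set-25, against 64.0, 82.0 and 73.3 CPM in wild type. The met-2 libraries were the lowest throughout, with met-2;set-25 between them and wild type. At F15 it had 15.7, 14.8 and 14.2 CPM in met-2, against 82.9, 61.9 and 86.9 CPM in wild type. Over all lines and generations the 18 met-2 libraries held 7.66 to 27.9 CPM, against 61.9 to 130.5 CPM in the 17 wild-type ones.

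The log2 changes of spe-41 in met-2 were -2.35 ± 0.23 (adjusted p = 7.3e-07), -3.02 ± 0.25 (adjusted p = 7.5e-08) and -2.37 ± 0.18 (adjusted p = 9.4e-06) at P0, F3 and F15. The met-2;set-25 changes were smaller, at -0.48 (adjusted p = 0.12) at P0 and -0.79 ± 0.23 (adjusted p = 0.011) at F3, the F3 call lost without met-2;set-25 replicate 1 (adjusted p = 0.054). Set directly against met-2, met-2;set-25 had more small RNAs at spe-41, by 1.87 (adjusted p = 1.4e-05) at P0 and 2.23 (adjusted p = 4.8e-06) at F3 on the log2 scale. In EG6089 the met-2;set-25 controls had 95.2, 158 and 118 CPM at P0, against 91.7, 121 and 101 CPM in wild type, which overlapped. At F3 they had 87.4, 66.8 and 67.8 CPM, against 93.0, 92.1 and 102 CPM in wild type, a log2 change of -0.38 ± 0.12 (adjusted p = 0.014) that was lost without replicate 3 of met-2;set-25 or of wild type (adjusted p = 0.062 and 0.052).

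**Figure D3:**
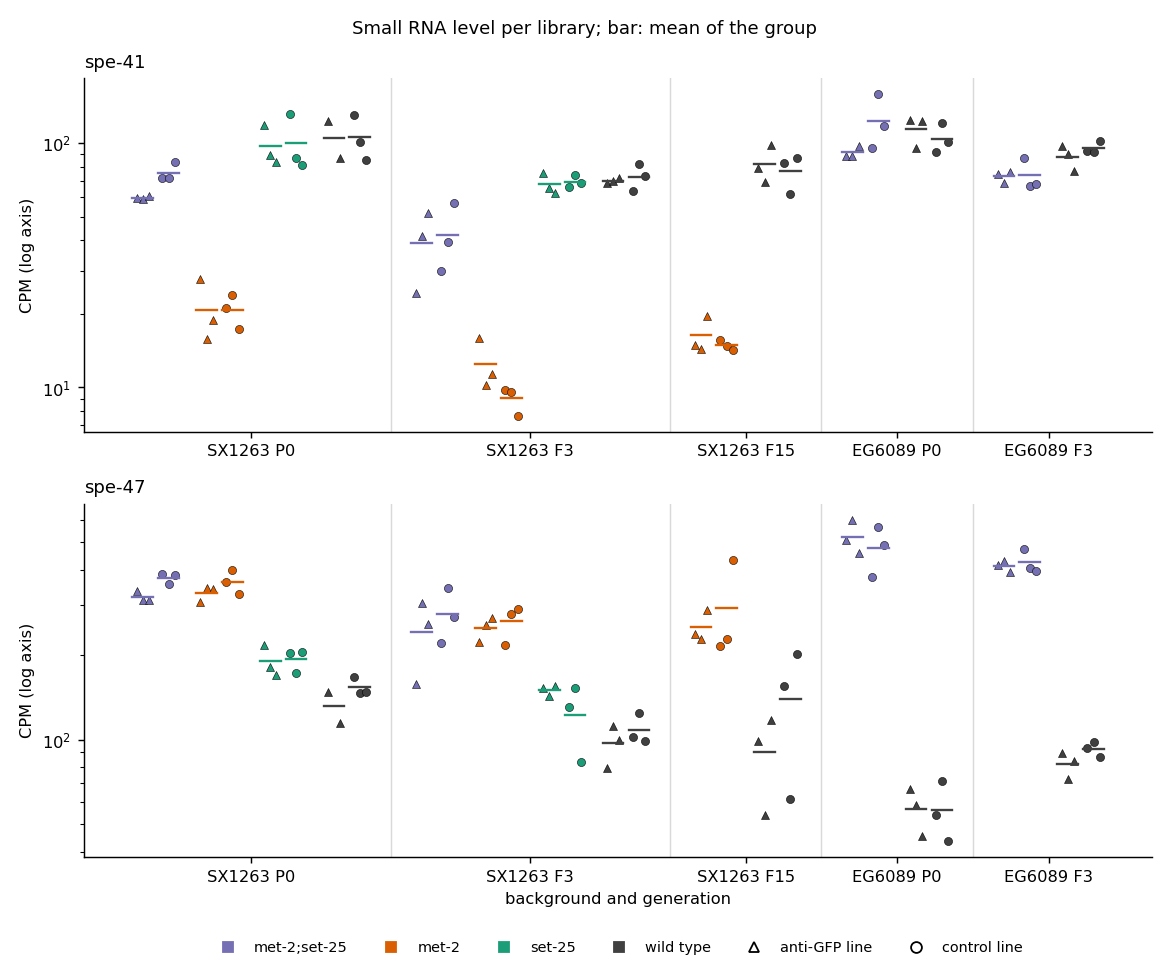
Small RNA level (CPM, log axis) of spe-41 and spe-47 in each of the 83 libraries, by background and generation, with colours for genotype, circles for control lines, triangles for anti-GFP lines and bars for group means. For spe-41 the 18 met-2 libraries hold 7.66 to 27.9 CPM, below all 17 wild-type libraries of SX1263, while for spe-47 the mutants that lack met-2 lie above wild type in most sets.

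The other fertilisation genes called in met-2 against wild type in control lines had more small RNAs in met-2. The membrane protein gene spe-49, a paralog of spe-42 (chromosome V, 6281359 to 6284895), had 4.74, 2.93 and 2.19 CPM in met-2 at F3, against 0.124, 0.151 and 0.347 CPM in wild type. These were 31, 21 and 16 counts against 1, 1 and 2 counts. At F15 it had 1.88, 1.58 and 3.59 CPM in met-2, against 0, 0.578 and 0.224 CPM in wild type. The groups did not overlap, and the log2 changes were 3.93 ± 0.75 (adjusted p = 0.00066) and 2.97 ± 0.67 (adjusted p = 0.0063).

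The gene spe-36 encodes a secreted protein with an EGF motif (chromosome IV, 11588260 to 11592265). Its levels at F3 were 3.82, 2.37 and 7.80 CPM in met-2, against 0.373, 1.51 and 0.694 CPM in wild type, and at F15 it had 10.2, 14.6 and 10.96 CPM, against 0.388, 0.868 and 1.23 CPM. All met-2 libraries were above all wild-type ones, with log2 changes of 2.44 ± 0.58 (adjusted p = 0.0036) and 3.74 ± 0.47 (adjusted p = 0.00022). In EG6089 at P0 it had 2.99, 0.816 and 2.74 CPM in met-2;set-25, against 0, 0.834 and 0.221 CPM in wild type. Those groups overlapped, and the log2 change of 2.58 (adjusted p = 0.038) was lost without met-2;set-25 replicate 1 or 3 or wild-type replicate 1 or 3 (adjusted p = 0.12, 0.081, 0.12 and 0.12). At F3 in EG6089 it had 2.01, 1.18 and 12.2 CPM in met-2;set-25, against 0, 0 and 0.254 CPM in wild type. That log2 change of 5.75 ± 2.26 was not called by edgeR (adjusted p = 0.057) and was called by DESeq2 (5.84, adjusted p = 0.0105).

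The remaining members of this role had low levels. At F15 spe-42, a membrane protein gene, had 1.19, 3.35 and 5.39 CPM in met-2, against 0.194, 0.434 and 0.561 CPM in wild type (log2 change 2.92, adjusted p = 0.005). The EGF-repeat gene spe-9 was higher at F15 by 1.82 (adjusted p = 0.039), but met-2 replicate 3 alone had 15.3 CPM, and without it the change was 0.62 (adjusted p = 0.3). The call was also lost without any of the 3 wild-type replicates (adjusted p = 0.11, 0.11 and 0.057). The membrane protein gene spe-38 was not called where tested, and spe-51, which encodes a secreted sperm protein, was not called against wild type without the block given above.

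After fertilisation, spe-11 supplies the egg with a paternal factor needed for its activation. At F3 it had 2.29, 2.65 and 0.684 CPM in met-2, against 0.249, 0.605 and 0.347 CPM in wild type. The groups stood just apart, and the log2 change of 2.19 ± 0.79 (adjusted p = 0.043) was lost in 5 of the 6 fits that left out a library, all but the one without met-2 replicate 3, with adjusted p of 0.069 to 0.16. At F15 the spe-11 change was 2.42 (adjusted p = 0.009). Of the members whose role is not given here, spe-54 had 2.14, 3.30 and 1.82 CPM in met-2 at P0, against 0.932, 0.306 and 0.440 CPM in wild type (log2 change 2.01 ± 0.69, adjusted p = 0.041). That call was lost without met-2 replicates 1 or 2 or wild-type replicates 2 or 3 (adjusted p = 0.054, 0.13, 0.14 and 0.12), and at F15 the change of 2.46 (adjusted p = 0.013) was lost without wild-type replicate 2 (adjusted p = 0.052). The other, spe-48, held 16.8 to 32.0 CPM over met-2, 15.1 to 26.03 CPM over met-2;set-25 and 16.5 to 27.03 CPM over set-25 libraries, against 15.2 to 28.1 CPM over wild type in SX1263. In EG6089 controls of F3 it had 33.4, 30.3 and 29.3 CPM in met-2;set-25, against 24.9, 21.95 and 26.4 CPM in wild type. That change of 0.33 ± 0.12 (adjusted p = 0.034) was lost in DESeq2 (adjusted p = 0.075) and without 4 of the 6 libraries, replicates 1 and 2 of both genotypes (adjusted p = 0.13, 0.057, 0.072 and 0.13).

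Set against set-25 in control lines, met-2 had 3 spe genes higher and 2 lower at P0, where 20.2% of all genes were called, and 8 higher and 1 lower at F3, where 15.1% were higher and 9.93% lower. These comparisons share the met-2 libraries with those against wild type. Lower in met-2 at both generations was spe-41, by 2.27 (adjusted p = 1.2e-06) and 2.95 (adjusted p = 9.1e-08) on the log2 scale. At P0 spe-51 had 1.40, 1.15 and 0.947 CPM in met-2, against 8.52, 3.13 and 2.87 CPM in set-25, a log2 change of -2.05 ± 0.58 (adjusted p = 0.016) with no overlap. That change was lost without met-2 replicate 3 (adjusted p = 0.063) or set-25 replicate 1, whose value is the highest (adjusted p = 0.13). Higher at P0 were spe-47 (0.91, adjusted p = 2.6e-05) and 2 genes whose calls were lost without 4 and 3 of the 6 libraries, spe-18 and spe-49. The 8 higher at F3 included spe-10, spe-11, spe-18, spe-36, spe-46, spe-47 and spe-49, led by spe-49 with a log2 change of 5.07 ± 0.82 (adjusted p = 0.00016), and the calls of spe-11 and spe-46 were lost without 4 and 5 of the 6 libraries.

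Set against met-2, met-2;set-25 had 1 spe gene higher and 3 lower at P0, where 6.31% of all genes were higher and 10.3% lower, and 1 higher and 6 lower at F3, where 9.24% were higher and 15.6% lower. The higher one was spe-41 both times. Lower at F3 were spe-15 and spe-44, as given above, and 4 low-level genes. For spe-49 the change was -3.74 ± 0.77 (adjusted p = 0.0017), with 0.476, 0 and 0.122 CPM in met-2;set-25, against 4.74, 2.93 and 2.19 CPM in met-2. For spe-36 it was -3.15 ± 0.64 (adjusted p = 0.0015), with 1.11, 0 and 0.244 CPM against 3.82, 2.37 and 7.80 CPM. For spe-18 it was -2.34 ± 0.56 (adjusted p = 0.0051) and for spe-10 it was -3.01 ± 0.94 (adjusted p = 0.024). No met-2;set-25 library reached a met-2 one for these 4 genes. The spe-10 call was lost without met-2 replicate 1 or met-2;set-25 replicates 2 or 3 (adjusted p = 0.096, 0.083 and 0.075). At P0 the calls of spe-44 and spe-5 were lost without 4 and 5 of the 6 libraries.

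The anti-GFP lines gave a separate set of libraries for each mutant and for wild type. There met-2 had 5 spe genes higher and 1 lower at P0, where 10.9% of all genes were higher and 8.37% lower. It had 11 higher and 1 lower at F3, where 15.8% were higher and 12.8% lower, and 8 higher and 1 lower at F15, where 14.7% were higher and 15.5% lower. The lower one was spe-41 each time, with log2 changes of -2.33 (adjusted p = 3e-06), -2.49 (adjusted p = 5.9e-07) and -2.33 (adjusted p = 9.9e-06). Genes called the same way in both sets were 5 at P0, which is 83.3% of the calls of either set. They were 9 at F3, which is 90% of the control calls and 75% of the anti-GFP calls, and 8 at F15, which is 50% of the control calls and 88.9% of the anti-GFP calls. The same overlap over all called genes was not computed, so these shares show nothing particular to spe genes. Replicate numbers paired the anti-GFP and control libraries of met-2 at P0 (correlations 0.195 to 0.593) and F3 (0.192 to 0.343). They also paired those of wild type at F15 (0.289 to 0.341), and at P0 wild type had 2 pairs only (0.584 and 0.630). The 2 sets are therefore separate libraries but not fully independent. In anti-GFP lines 4 of the P0 calls, 5 of the F3 calls and 4 of the F15 calls of met-2 were lost without 1 library or another, at F15 that of spe-47 among them, and those of spe-41 never were. The 9 at F3 included spe-8, spe-10, spe-18, spe-36, spe-41, spe-46, spe-47 and spe-49.

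**Figure D4:**
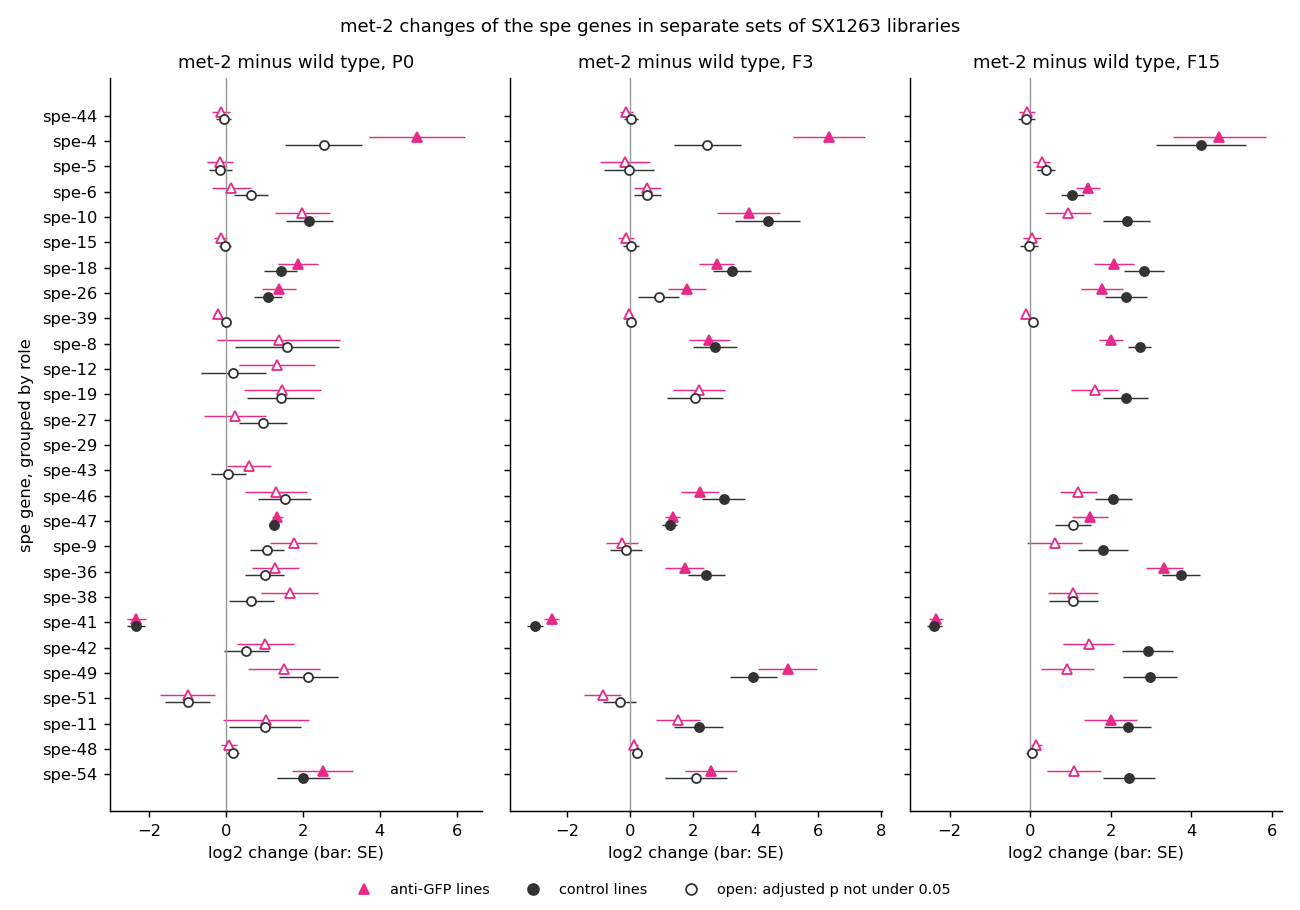
Log2 change in small RNA level of the spe genes (27 of the 29) in met-2 against wild type at P0, F3 and F15 in SX1263 (left to right), in anti-GFP lines (triangles) and control lines (circles), with bars for the SE and open symbols for an adjusted p not under 0.05. Every symbol of spe-41 lies between -3.02 and -2.33, and spe-4 reaches 6.35 in the anti-GFP lines of F3.

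In met-2;set-25 anti-GFP lines of SX1263, 2 spe genes were higher and 3 lower at P0, where 10.9% of all genes were higher and 10.9% lower, and 2 higher and 3 lower at F3, where 16.3% were higher and 16.5% lower. In EG6089 there were 2 higher and 3 lower at P0, where 20.5% were higher and 28.1% lower, and 3 higher and 3 lower at F3, where 23.1% were higher and 27.2% lower. As in control lines, spe-47 was higher and spe-15 lower in all 4 sets. At F3 spe-15 had 8.05, 6.80 and 10.3 CPM in EG6089 met-2;set-25, against 33.0, 34.7 and 27.8 CPM in wild type (log2 change -1.93, adjusted p = 0.00016). The calls lost without 1 library or another were 3 and 1 in SX1263 at P0 and F3 and 3 in EG6089 at F3. In set-25 anti-GFP lines edgeR called 0 members at P0 and 0 at F3, where 0.806% and 0.962% of all genes were called. At an unadjusted p under 0.05 there were 2 members at each, where 7.8% and 7.97% of all genes passed. DESeq2 called 1 at P0, spe-47, with a log2 change of 0.52 (adjusted p = 0.0056), and 0 at F3.

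Some high values came from 1 or 2 libraries of a group. In met-2 anti-GFP lines spe-4 had 3.15, 5.35 and 88.7 CPM at P0, 3.31, 5.83 and 63.6 CPM at F3 and 57.8, 7.89 and 5.30 CPM at F15. In wild-type anti-GFP lines it had 0.524 and 1.66 CPM at P0, 0.261, 0.294 and 0.282 CPM at F3 and 1.09, 1.09 and 0.425 CPM at F15. Each generation thus had 1 met-2 library far above the other two, and all met-2 libraries lay above wild type. At F3 the log2 change was 6.35 (adjusted p = 0.00039), and without that library it was 3.96 (adjusted p = 0.00186). At F15 it was 4.69 (adjusted p = 0.013), lost without any of the 3 wild-type libraries (adjusted p = 0.0502, 0.0504 and 0.0536). At P0 it was 4.97 (adjusted p = 0.0086), and the call was lost without that library (2.0, adjusted p = 0.103) or without wild-type replicate 1 (adjusted p = 0.123). In met-2;set-25 anti-GFP lines of F3, spe-5 had 159, 3.72 and 8.50 CPM, against 7.95, 11.6 and 13.7 CPM in wild type. The library at 159 CPM made spe-5 one of the 2 genes called higher there, with a log2 change of 2.38 (adjusted p = 0.028), and without it the change was -0.86 (adjusted p = 0.0688). The call was lost, too, without any 1 wild-type library (adjusted p = 0.102, 0.0745 and 0.0614). In EG6089 spe-36 had 0.919, 20.8 and 39.5 CPM in met-2;set-25 anti-GFP lines of F3, against 0, 0 and 1.18 CPM in wild type. There 2 of the 3 libraries were high. The cause of these high libraries was not tested.

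No spe gene was called between lines fed anti-GFP and control bacteria. In the 14 comparisons of an anti-GFP line with the control line of the same genotype and generation, edgeR called 0 spe genes, and 0.0299% of all tests over genes were called. Over the 14 comparisons 8 tests of spe genes had an unadjusted p under 0.05. The share of all genes at that threshold was 0.664% to 9.12%, depending on the comparison. DESeq2 called 1, spe-5 in met-2;set-25 of SX1263 at F3, where the library at 159 CPM lies. Without that library the log2 change was 0.13 (adjusted p = 1).

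Between generations of wild type no spe gene was called. With edgeR there were 0 between F3 and P0 in SX1263, where 0.905% of all genes were called, 0 between F15 and F3, where 0.456% were, and 0 between F3 and P0 in EG6089, where 8.42% were. At an unadjusted p under 0.05 in edgeR there were 10 of 26, 5 of 26 and 3 of 10 tested members, where 13.6%, 13% and 27.4% of all genes passed. DESeq2 called 0. In SX1263 the tested members had a median log2 change of -0.86 at F3 against P0, with -0.11 over all genes, and of 0.50 at F15 against F3, with 0.03 over all genes. The largest of these were spe-27 at F3 against P0, with -2.99 (adjusted p = 0.14), and spe-46 at F15 against F3, with 2.78 (adjusted p = 0.093). Whether the met-2 effect differed between generations was tested directly. With edgeR 0 spe genes were called for F3 minus P0, where 0.0157% of all genes were called, and 0 for F15 minus F3, where 3.78% were. At an unadjusted p under 0.05 in edgeR there were 2 and 3 of 26 tested members, where 3.51% and 13.5% of all genes passed. DESeq2 called 0. These tests used control lines, in which met-2 had 6, 10 and 16 calls at P0, F3 and F15. In anti-GFP lines it had 6, 12 and 9, so that the count was lower at F15 than at F3 there.

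The 21 low-level spe genes were summed in each library. At F3 the controls had 57.1, 47.7 and 39.5 CPM in met-2, 25.4, 5.90 and 15.7 CPM in met-2;set-25 and 15.2, 13.2 and 11.2 CPM in set-25, against 10.1, 11.4 and 10.4 CPM in wild type. At P0 they had 26.2, 72.8 and 50.2 CPM in met-2, against 24.0, 17.2 and 21.3 CPM in wild type. The P0 controls had 20.65, 37.23 and 55.25 CPM in met-2;set-25 and 23.4, 20.7 and 39.6 CPM in set-25, and both overlapped met-2. At F15 the controls had 109, 111 and 156 CPM in met-2, against 11.2, 22.1 and 30.3 CPM in wild type. All met-2 libraries were above all wild-type ones, while 1 met-2;set-25 library of F3 fell below wild type. In EG6089 controls of F3 the sums were 10.1, 11.8 and 22.4 CPM in met-2;set-25, against 9.57, 11.5 and 10.2 CPM in wild type. These sums include genes tested only because they were high in met-2, so they are given without a test.

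**Figure D5:**
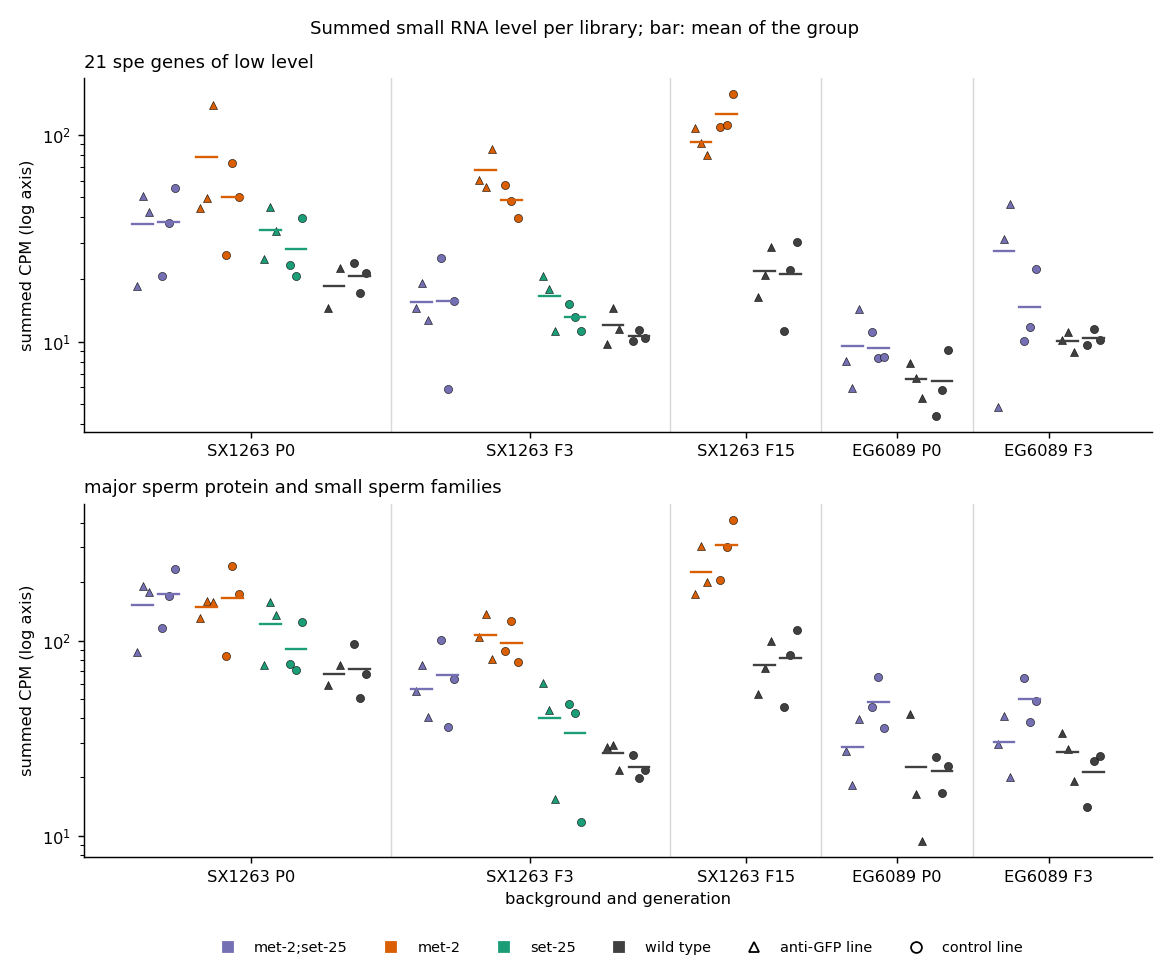
Summed small RNA level (CPM, log axis) of the 21 low-level spe genes and of the major sperm protein and small sperm families in each of the 83 libraries, by background and generation, with colours for genotype, circles for control lines, triangles for anti-GFP lines and bars for group means. The met-2 controls of F3 hold 57.1, 47.7 and 39.5 CPM of spe small RNA, against 10.1, 11.4 and 10.4 CPM in wild type.

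Other sperm genes were also higher in met-2. The major sperm protein and small sperm families, 63 genes with a row in SX1263, had 88.3, 127 and 77.4 CPM in met-2 controls of F3, against 25.98, 19.8 and 21.7 CPM in wild type. Only 25 of the 63 passed the filter, some through other libraries than wild type: msp-38 averaged 3.12 ± 2.49 CPM in met-2 and had no count in wild-type controls. Of the 25, 20 were higher and 0 lower with a median log2 change of 2.17, where 17.9% of all genes were higher and 10.3% lower and the median was 0.03. In met-2;set-25 controls of F3 the families had 100.8, 36.1 and 63.5 CPM, also above wild type. There 7 of the 25 were higher and 0 lower, where 18.6% of all genes were higher and 19.7% lower. At P0 the families had 115.9, 169.3 and 232.3 CPM in met-2;set-25 and 82.98, 239.7 and 173.8 CPM in met-2, against 96.6, 51.06 and 67.63 CPM in wild type. As with the spe genes, these counts describe the tested genes and not the families. Copies of these families share sequence, so single members are uncertain. A list of other sperm genes, 15 with a row, had 10 members tested, of which 6 were higher and 0 lower, with a median of 2.0, the filter acting on them in the same way. Its largest change was in fer-1, a sperm membrane fusion gene, with 193, 245 and 315 CPM in met-2 and 3.49, 1.73 and 4.02 CPM in met-2;set-25, against 4.35, 5.15 and 3.12 CPM in wild type. Of 17 genes in a list of the sperm small RNA pathway, 2 were higher and 1 lower, both below the shares over all genes, and the higher ones were the Argonaute genes alg-3 at 13.9 ± 12.4 CPM in met-2, against 1.40 ± 0.762 CPM in wild type (log2 change 3.26, adjusted p = 0.00092), and alg-4 (log2 change 3.59, adjusted p = 0.0019). The lower one, named after its value was seen, was hrde-1, a nuclear Argonaute gene (log2 change -0.38, adjusted p = 0.0056).

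Markers of other tissues also moved in met-2 at F3, and their part in the spe results was not tested. The counts stand beside 17.9% of all genes higher and 10.3% lower, over only 4 to 6 markers of a tissue. The 6 oocyte markers had 0 of 6 called and summed to 1182 to 1309 CPM in met-2, against 1233 to 1294 CPM in wild type. The 6 body wall muscle markers summed to 175.5 to 502 CPM in met-2, against 19.4 to 20.6 CPM in wild type, with 3 of 4 tested higher, such as myo-3, a myosin, which averaged 223 ± 165 CPM against 0.0919 ± 0.0807 CPM. The 6 intestine markers summed to 63.9 to 196 CPM, against 34.1 to 40.1 CPM, with 2 of 5 higher, among them the yolk gene vit-6. The 6 neuron markers summed to 167 to 211 CPM, against 73.4 to 93.0 CPM, with 3 of 5 higher, among them egl-3. The markers not tested, 2 of muscle, 1 of intestine and 1 of neurons, were below the count filter. In met-2;set-25 of SX1263 at F3 the muscle markers summed to 3.49 to 6.09 CPM, below wild type, and the intestine markers to 111.6 to 152 CPM, above it.

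RefSeq names 5 further genes spe- that the Ensembl release names otherwise, spe-21, spe-40, spe-55, spe-57 and spe-58. All were low in wild type, so the filter limits them as it does the members. At F3 spe-57 had 4 counts over the 3 wild-type controls, and only met-2 libraries reached the filter's level of 1.43 CPM. The calls below were not checked by leaving out libraries, and the shares over all genes are those given above. In met-2 controls spe-57 averaged 4.13 ± 3.38 CPM at F3, against 0.191 ± 0.0510 CPM in wild type (log2 change 4.28, adjusted p = 0.0014), and it was also higher at P0 (2.29, adjusted p = 0.015) and F15 (3.74, adjusted p = 0.0026). Higher in met-2 too were spe-55 at P0 (1.89, adjusted p = 0.021) and F15 (2.04, adjusted p = 0.015) and spe-58 at F15 (1.59, adjusted p = 0.029), while spe-21 was tested in SX1263 at P0 only and not called in control lines, and spe-40 was below the filter throughout. In the anti-GFP lines of P0 spe-21 was higher in met-2, with 0.770 ± 0.245 CPM against 0.0655 ± 0.0926 CPM in wild type (log2 change 3.14, adjusted p = 0.049). That wild type had 2 libraries and 2 counts in all. Also called there in met-2 were spe-57 at F3 and F15 (adjusted p = 0.0096 and 0.029) and spe-55 at P0 and F15 (adjusted p = 0.029 and 0.037). Not called there were spe-57 at P0 (adjusted p = 0.059) and spe-58 at F15 (adjusted p = 0.13). In met-2;set-25 of SX1263 at P0 spe-55 was higher as well in control lines (1.62, adjusted p = 0.048), but not called in anti-GFP lines (1.37, adjusted p = 0.15).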

How the data were processed

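Small RNA was extracted with TRIZOL from whole animals, per the labels' protocols. The authors deposited raw counts per gene and library. The submitters' processing notes list HTSeq, Bowtie2, cutadapt, FastQC and DESeq2, with builds WBcel235 and ce11. Tool versions and the counting strand are not given in the sources used here. The 5 HTSeq counter rows of each file, 29.2 to 42.4% of the total in EG6089 and 50.8 to 62.0% in SX1263, were left out. No 2 libraries of a group held the same values.

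Counts were scaled by TMM and tested with the robust quasi-likelihood test of edgeR 4.0.16 in R 4.3.3, in 1 fit per background and generation. The filter on low values was filterByExpr with count and total minima of 10 and 15. Contrasts of generations came from 1 fit per background. P-values are two-sided and Benjamini-Hochberg adjusted over all genes tested. Standard errors are approximate, the log2 change divided by the root of F, and floors cover counting error only. The procedure was tested on simulated data. Alternatives were DESeq2 1.42.0, RLE scaling, no filter, a replicate block, the compared groups alone and each library left out in turn.

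The members and lists were chosen with earlier results of these data known. Values in every library are given for members called in control lines (at most 6 each way in met-2 at F3, at most 3 elsewhere) and for the 3 highest in wild type. Further members were named after their values were seen. Values of 2 members are not reported here, though counts and sums over the members include them. Replicate numbers paired the libraries in 12 of 39 comparisons, by correlated deviations above 0.1 in each of at least 3 pairs. Among them, in control lines, were met-2 against wild type at F15 (0.110 to 0.174) and met-2;set-25 against wild type in SX1263 at P0 (0.272 to 0.508). The labels name no shared batch.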

Additional observations from a re-analysis of the deposited data

How the results depend on the processing

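In control lines no called gene changed direction. In anti-GFP lines spe-5 did, in met-2;set-25 of SX1263 at F3, where its log2 change was 2.38 with all libraries and -0.86 without the library at 159 CPM. In control lines, over the alternatives other than leaving out a library, 360 values of called genes kept their call and 15 lost it, and over the fits that left out 1 library 379 kept it and 83 lost it. With a replicate block, 8 spe genes were called in met-2;set-25 against wild type of SX1263 at P0 in control lines, and 8 in anti-GFP lines, where 2 pairs only could be formed. The block gave 14 for met-2 against wild type at F15 and 1 for set-25 at P0 in anti-GFP lines, 9 for met-2 against set-25 at P0, and 3 over the wild-type generation comparisons. In met-2;set-25 against met-2 at P0, whose numbers paired the libraries, it added spe-36 (-1.17, adjusted p = 0.0439) and spe-39 (-0.22, adjusted p = 0.0289). Fitting the compared groups only gave 3 for met-2 at P0, 1 for set-25 at F3, 3 for met-2;set-25 at P0 and 2 at F3, all in anti-GFP lines of SX1263. DESeq2 gave 1 for set-25 at P0 in anti-GFP lines and 1 over the 14 anti-GFP comparisons, and no filter gave 1 over the generation comparisons. The cause was not tested. Leaving out 1 library gave 2 to 7 calls for met-2 at P0 in control lines, with 2 without met-2 replicate 2 or wild-type replicate 2 and 3 without wild-type replicate 3. It gave 2 to 4 for met-2;set-25 at P0, 2 to 6 for met-2 against set-25 at P0 and 2 to 4 for met-2;set-25 against met-2 at P0. In anti-GFP lines it gave 2 to 5 for met-2 at P0, 7 to 11 at F3, 5 to 9 at F15 and 2 to 5 for met-2;set-25 at P0. It gave 0 to 1 over the anti-GFP and over the generation comparisons. The median log2 change of the spe genes in EG6089 met-2;set-25 at P0 was 0.40 with RLE scaling and -0.05 with no scaling factor, which moved the median of all genes by 0.16 and -0.27. With no scaling factor the median of all genes in met-2 moved by 0.17, 0.14 and 0.13 at P0, F3 and F15. The 21 low-level genes rest on a few counts per library, so that depth limits what could be called for them, most in EG6089.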
